A study of Drosophila melanogaster with 2 samples.

Results

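The genes described here are 9 fork head family genes of Drosophila melanogaster, namely fkh, slp1, slp2, bin, croc, jumu, foxo, fd59A and fd64A, out of 18164 annotated genes. They were chosen by name, with earlier results of these data known. The values are those of Ash1-GFP ChIP-seq regions whose summit lay in 1 of these genes or within 5 kb of it. That rule found 87 of the 30000 candidate regions in the list made from both replicates together, 92 of 30000 in replicate 2 and 86 of 30000 in replicate 4. Embryos of both sexes, 0 to 24 h old, came from a transgenic line that stably expresses Ash1 with GFP at its C terminus, and chromatin was sonicated and size-selected at 200 to 800 bp. The 2 samples are biological replicates 2 and 4 of that 1 group. A free-text label describes both as input controls, while the antibody label names ash1. They were read as immunoprecipitated samples on that label. Which promoter drives the tagged gene, and whether untagged Ash1 was also present, is not given in the sources used here. No untagged strain or second condition was analysed here, so nothing below is a contrast between conditions and no p-value is given.

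Ash1 is a trithorax group protein that methylates histone H3 at lysine 36 and is known for keeping developmental genes active against Polycomb repression. Fork head proteins are transcription factors that bind DNA through a winged-helix domain, and in the fly embryo different members specify the gut and salivary glands, the head, the segments and the visceral mesoderm. A candidate region is a peak or a piece of background passed on by the authors for their test of reproducibility, the irreproducible discovery rate (IDR). The 1567 regions that passed are called peaks here, and they are the 1567 pooled candidates with the highest signal value. Ranks follow that value, with 1 the strongest. Its scale is not stated, so it is used to order regions within a list. Whole embryos mix many tissues, and binding in few cells cannot be told apart from weak binding in many.

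The members held 7 peaks, and their sequences (dm6, from the RefSeq copy of the assembly) are shown because the results on the 5 genes with a peak rest on them. Each is written 5' to 3' on the strand of its gene, and capitals mark a match to 1 of 6 motifs searched on either strand, whose letters are given with the motif counts further on. At fkh the whole 231 bp region is printed (chr3R:28585390-28585620, minus strand). At slp1 (chr2L:3825525-3825674) and slp2 (chr2L:3836690-3836839) the summit fell on the transcription start site (TSS), and the 150 bases upstream of it are printed. At foxo they are the whole 178 bp region upstream of the gene (chr3R:14053541-14053718), the 184 intronic bases around the summit near its inner TSS (chr3R:14057557-14057740) and 201 bases around the summit beyond its 3' end (chr3R:14088876-14089076). At jumu 201 bases around an intronic summit are printed (chr3R:10354374-10354574).
fkh, rank 12: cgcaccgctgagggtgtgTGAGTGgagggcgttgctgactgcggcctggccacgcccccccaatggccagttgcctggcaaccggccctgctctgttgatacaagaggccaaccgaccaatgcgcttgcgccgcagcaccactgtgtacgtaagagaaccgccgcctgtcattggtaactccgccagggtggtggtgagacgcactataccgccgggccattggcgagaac
slp1, rank 782: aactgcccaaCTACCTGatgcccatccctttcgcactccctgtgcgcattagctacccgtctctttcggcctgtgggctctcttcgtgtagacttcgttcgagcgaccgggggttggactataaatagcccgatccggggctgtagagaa
slp2, rank 870: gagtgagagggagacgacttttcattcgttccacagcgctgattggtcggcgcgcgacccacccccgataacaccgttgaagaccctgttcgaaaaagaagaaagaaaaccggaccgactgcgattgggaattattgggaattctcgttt
foxo upstream, rank 175: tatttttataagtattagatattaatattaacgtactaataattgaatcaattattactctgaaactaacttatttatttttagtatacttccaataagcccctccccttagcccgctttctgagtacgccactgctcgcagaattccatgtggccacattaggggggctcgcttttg
foxo inner start, rank 1537: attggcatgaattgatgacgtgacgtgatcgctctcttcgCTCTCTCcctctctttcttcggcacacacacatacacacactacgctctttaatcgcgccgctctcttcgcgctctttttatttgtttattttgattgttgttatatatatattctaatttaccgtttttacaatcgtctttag
foxo downstream, rank 1379: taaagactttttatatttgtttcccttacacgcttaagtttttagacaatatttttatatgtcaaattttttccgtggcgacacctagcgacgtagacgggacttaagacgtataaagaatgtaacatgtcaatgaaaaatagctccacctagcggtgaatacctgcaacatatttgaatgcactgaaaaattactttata
jumu intron, rank 1126: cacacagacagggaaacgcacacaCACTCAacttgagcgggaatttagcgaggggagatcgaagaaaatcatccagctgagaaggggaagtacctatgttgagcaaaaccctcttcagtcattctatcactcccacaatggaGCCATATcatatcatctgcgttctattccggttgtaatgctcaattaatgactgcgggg

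Peaks lay at fkh, slp1, slp2 and jumu, with 1 each, and at foxo, with 3. No peak lay at bin, croc, fd59A or fd64A. Thus 5 of the 9 genes had a peak in the gene or within 5 kb, against 21.1% of 13945 protein-coding genes. A window that follows the gene is wider for long genes, and the share over all genes was 15.3% below 2 kb, 23.1% from 2 to 10 kb and 34.5% above 10 kb. Among the members, slp1 was the only gene below 2 kb and had a peak, 2 of 6 from 2 to 10 kb had one (fkh and slp2), and so did both above 10 kb (jumu and foxo). A peak within 500 bp of a TSS was present at fkh, slp1, slp2 and foxo, 4 of 9, against 7.49% of protein-coding genes. Of the 87 member candidates 7 (8.05%) were peaks, against 5.22% of all 30000, a share not far from the members'.

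**Figure D1:**
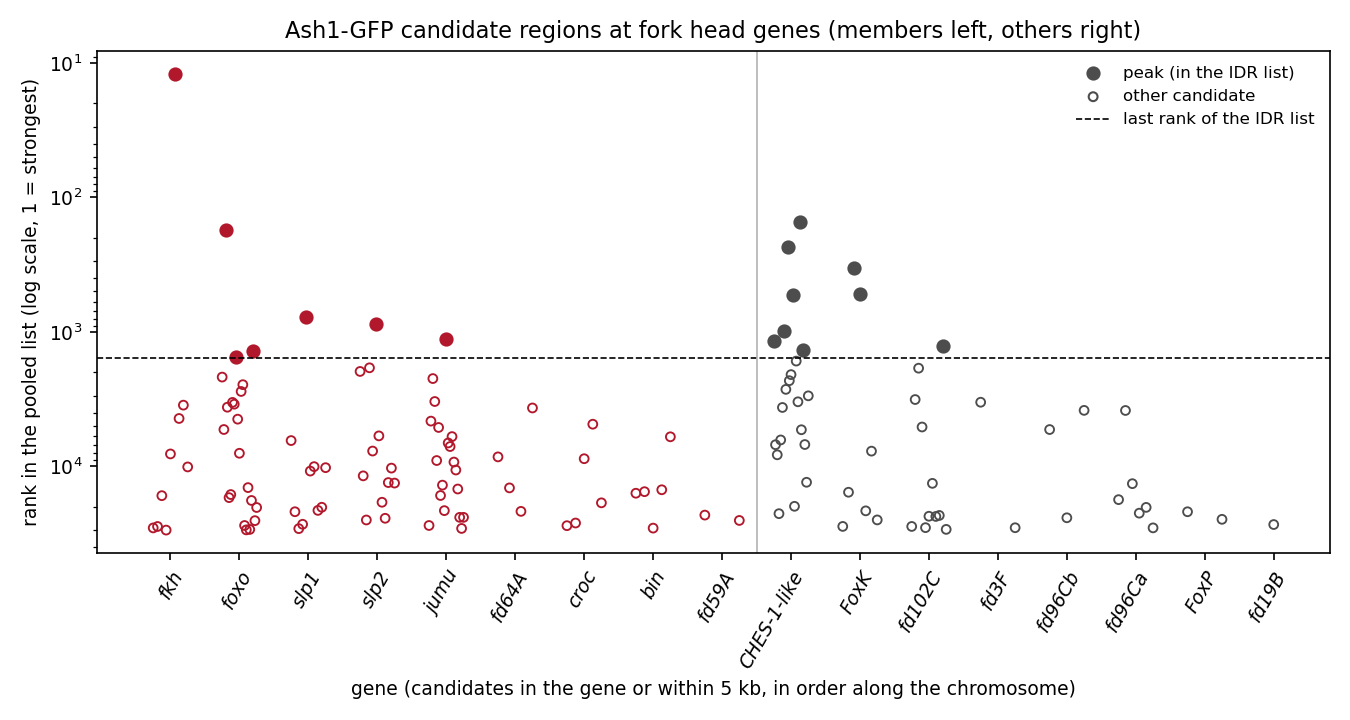
Rank of each pooled candidate region on a log scale, by gene, with the 9 members left and the 8 other fork head genes right; filled points are peaks and the dashed line is rank 1567. The peak of fkh, at rank 12, stands far above every other region drawn, and bin, croc, fd59A and fd64A have open points alone.

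fkh encodes Fork head, the founding FoxA factor of the family, which is needed for the ends of the embryonic gut and for the salivary glands. The gene (FBgn0000659) lies at chr3R:28580976-28585264 on the minus strand. Its peak ranked 12 in the pooled list, 15 in replicate 2 and 14 in replicate 4, with a signal value of 534, 249 and 300.1 in these lists. The ranks of both replicates lay beside each other, and the summits in all 3 lists fell within 15 bp. The pooled summit, at 28585501 on 3R, was 237 bp upstream of the outer of 2 annotated TSSs and lay between genes, with lncRNA:CR43126 starting farther out on the opposite strand. The next strongest of the 9 pooled candidates at fkh ranked 3514 and lay 3359 bp upstream in an exon of lncRNA:CR43126. Both candidates within the gene were in coding sequence, at ranks 8106 and 29876. The region was 231 bp wide, narrower than the 336 bp most frequent in the pooled list, as were 19.9% of all peaks.

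slp1 and slp2 are neighbouring paralogues that encode Sloppy paired proteins, FoxG factors with pair-rule and segment polarity functions. slp1 (FBgn0003430, chr2L:3825675-3827099) and slp2 (FBgn0004567, chr2L:3836840-3839185) lie on the plus strand, with 11165 bp between their TSSs. Each had its peak on its TSS: the pooled summit was 4 bp inside slp1, at 3825679, and 3 bp inside slp2, at 3836843. The slp1 peak ranked 782 in the pooled list, 1052 in replicate 2 and 690 in replicate 4. The slp2 peak ranked 870, 1335 and 642 in the same lists. The paralogues changed places between the replicates, and the difference within either gene was larger than the difference between the genes in the pooled list, so their order cannot be told apart.

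Between slp1 and slp2, over 9740 bp with no annotated gene, lay 8 further pooled candidates. The 2 strongest ranked 1854 and 1973, just below the peaks, and were 1417 bp and 4373 bp upstream of slp2. Replicates differed on them. The region nearer to slp2 ranked 4037 in replicate 2 and 1161 in replicate 4, where it was among the 1567 strongest, and the region farther out ranked 2305 in replicate 2 and 4726 in replicate 4. At slp1 the strongest region apart from its peak ranked 6447, 4177 bp upstream of the gene. slp1 held 10 pooled candidates and slp2 held 12, against a median of 2 for protein-coding genes below 2 kb and of 4 from 2 to 10 kb.

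**Figure D2:**
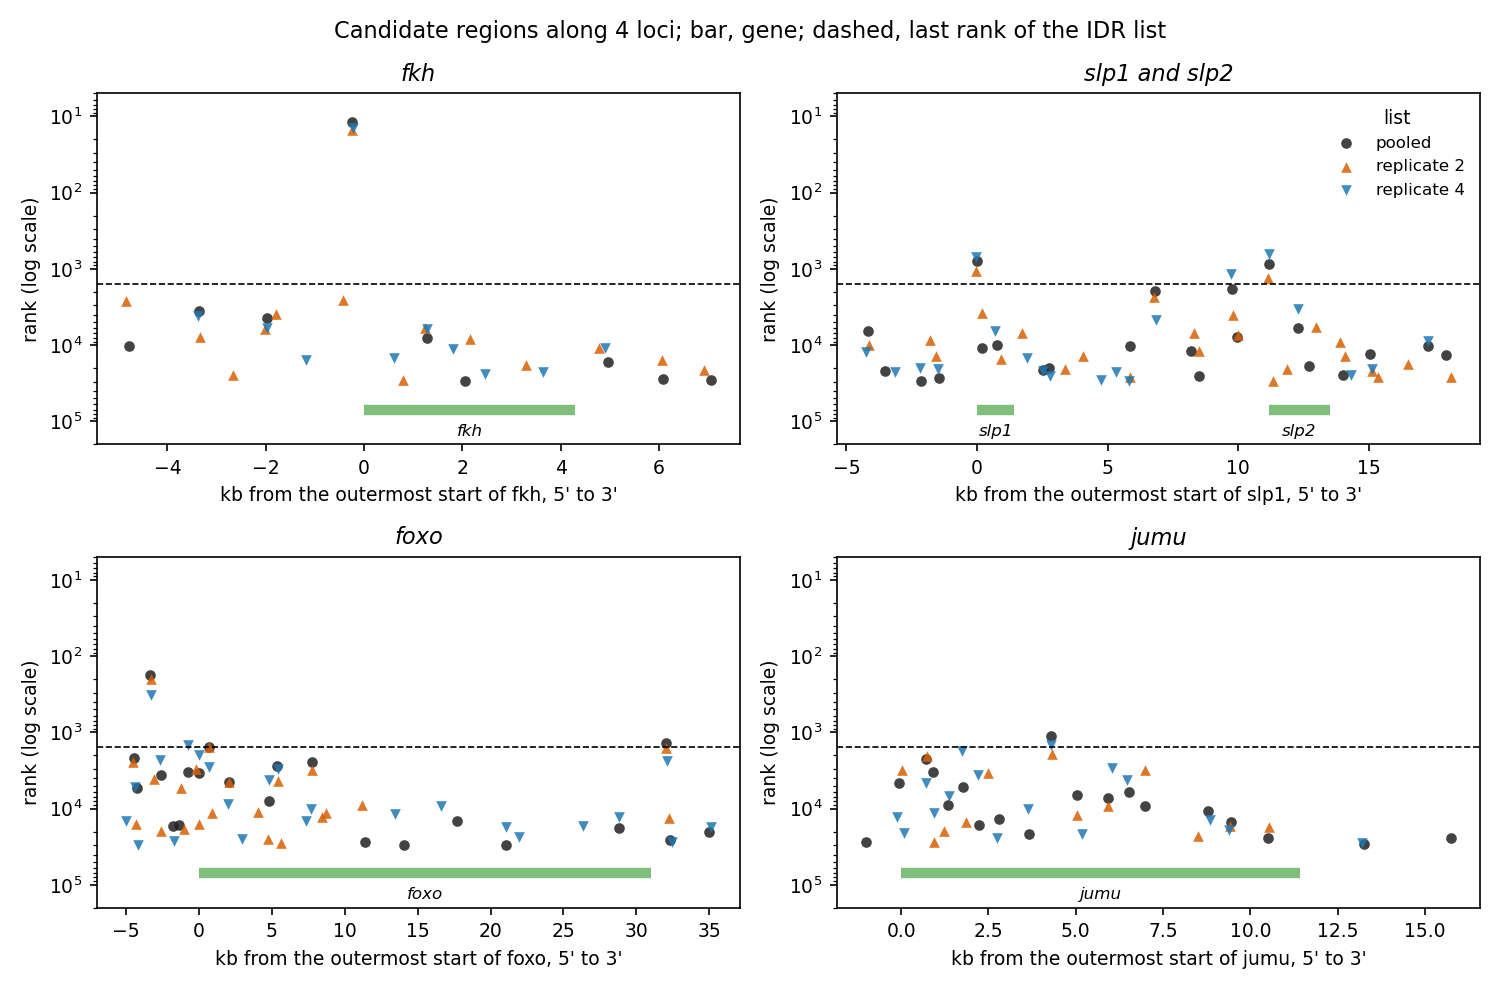
Rank of each candidate region (log scale) against distance from the outermost start of the first gene in kb, in the pooled list, replicate 2 and replicate 4, at fkh, slp1 with slp2, foxo and jumu; green bars are the genes and the dashed line is rank 1567. The fkh region at rank 12 is the only region of that gene above the line, with weaker regions also upstream. slp1 and slp2 each have their highest points at the start of the gene, and foxo has points near or above the line at both ends.

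foxo encodes the FoxO factor of insulin signalling, which is held in the cytoplasm when the pathway is active. The gene (FBgn0038197, chr3R:14056945-14087978, plus strand) is the longest member, at 31034 bp, and had 21 pooled candidates, against a median of 8 for genes above 10 kb. Of protein-coding genes above 10 kb, 5.46% had at least 3 peaks, as foxo did. Its strongest peak lay outside the gene, 3312 bp upstream of the outer TSS with the summit at 14053633. It ranked 175 in the pooled list, 199 in replicate 2 and 320 in replicate 4, and was 178 bp wide. The second, at 14088976, lay 998 bp beyond the 3' end of foxo and 541 bp from the TSS of Npc2b, which was nearer to it than any start of foxo. It ranked 1379 in the pooled list, 1612 in replicate 2 and 2395 in replicate 4, and so was not among the 1567 strongest of either replicate.

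The third foxo peak, at 14057657, lay in an intron 262 bp upstream of the inner TSS. It ranked 1537 in the pooled list, close to the last peak, with 1533 in replicate 2 and 2817 in replicate 4. At the outer TSS the candidate ranked 3457 in the pooled list, 15852 in replicate 2 and 1961 in replicate 4. Replicate 2 had a stronger region beside it, 201 bp upstream of that TSS at rank 3023, too far from the pooled summit to count as a match. Another region, 735 bp upstream of the outer TSS, ranked 3353 in the pooled list and 1450 in replicate 4, with no summit within 100 bp in replicate 2. Intronic candidates continued into the gene, at ranks 2475 (6763 bp into the gene from the inner TSS) and 2780 (4372 bp). Farther into the gene the strongest pooled candidate ranked 14429.

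jumu encodes Jumeau, a FoxN factor known from neural and heart progenitors and as a modifier of position-effect variegation. The gene (FBgn0015396) lies at chr3R:10350182-10361612 on the plus strand, and 15 of its 19 pooled candidates lay inside it. The single peak was intronic, with the summit at 10354474, 4292 bp downstream of the TSS. It ranked 1126 in the pooled list, 1895 in replicate 2 and 1470 in replicate 4, so it was among the 1567 strongest of replicate 4 and just below them in replicate 2. The promoter was weaker than the intron in both replicates. At the TSS the pooled candidate ranked 4620, and the strongest region within 500 bp of the TSS ranked 3153 in replicate 2 and 13003 in replicate 4. The second strongest pooled region was also intronic, 722 bp from the TSS at rank 2229 (2027 in replicate 2 and 4551 in replicate 4).

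bin encodes Biniou, the FoxF factor of the visceral mesoderm, and croc encodes Crocodile, a FoxC factor of the embryonic head. bin (FBgn0045759) lies at chr3L:6990622-6994447 on the plus strand, and croc (FBgn0014143) at chr3L:21474133-21476479 on the minus strand. At bin the strongest of 5 pooled candidates ranked 6044 and lay 45 bp from the TSS of the neighbouring gene Mp, and the next ranked 14973. No candidate lay within 500 bp of the bin TSS in any of the 3 lists. At croc the strongest of 5 ranked 4871, 3285 bp upstream of the gene. It ranked 20676 in replicate 2 and 2691 in replicate 4, a wide spread. The region just outside the croc promoter, 505 bp upstream, ranked 8798 in the pooled list, 8483 in replicate 2 and 15317 in replicate 4.

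fd64A (FBgn0004895, chr3L:4018878-4021279, plus strand), a FoxL gene that the annotation lists as FoxL1, had 4 pooled candidates. The strongest, at rank 3688 (3192 in replicate 2 and 4694 in replicate 4), lay 4599 bp beyond the gene and 133 bp from the TSS of CG11594. The strongest region with fd64A as its nearest gene ranked 8526. fd59A (FBgn0004896, chr2R:22868159-22870706, plus strand), a FoxD gene, had 2 pooled candidates, at ranks 23109 and 25327. Its strongest region ranked lower than the strongest of any other member. Replicate 2 had no summit within 100 bp of either, and replicate 4 matched them at ranks 16434 and 21273. The nearest peak lay 10542 bp from bin (rank 1206, nearest TSS that of Galphai) and 13877 bp from fd59A (rank 841, RpL23). It lay 85945 bp from fd64A (rank 1199, in an intron of Eip63F-1) and 128012 bp from croc (rank 1551, in an intron of TfAP-2).

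**Figure D3:**
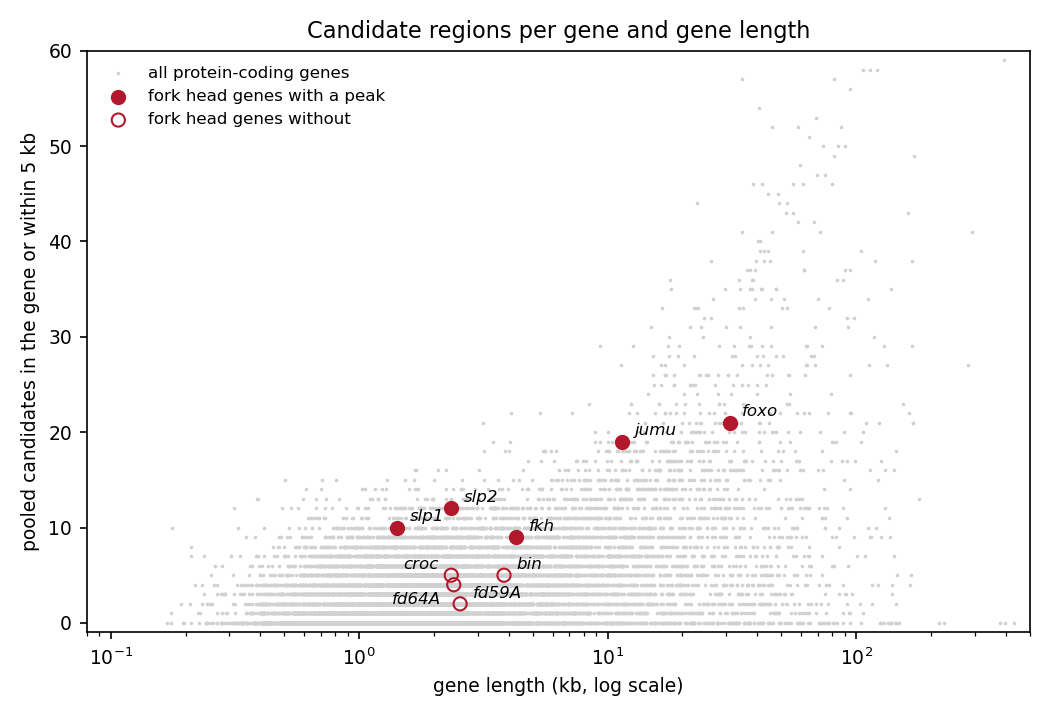
Pooled candidate regions in the gene or within 5 kb, against gene length in kb on a log scale; grey points are protein-coding genes (16 with more than 60 candidates are not drawn) and red points the 9 members, filled where the gene has a peak. fkh, slp1 and slp2, with 9 to 12 candidates, sit above bin, croc, fd64A and fd59A, with 2 to 5, among members shorter than 5 kb.

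Set side by side, the strongest region of each gene gave the order fkh (12), foxo (175), slp1 (782), slp2 (870), jumu (1126), fd64A (3688), croc (4871), bin (6044) and fd59A (23109) in the pooled list. In replicate 2 the order was fkh (15), foxo (199), slp1 (1052), slp2 (1335), jumu (1895), fd64A (3192), bin (4080), croc (8483) and fd59A (24320). In replicate 4 it was fkh (14), foxo (320), slp2 (642), slp1 (690), jumu (1470), croc (2691), bin (4435), fd64A (4694) and fd59A (16434). fkh and foxo stood at the top, jumu in the fifth place and fd59A last in each list. The neighbours slp1 and slp2 exchanged places, as did fd64A, croc and bin. At bin, croc and fd59A the strongest region of replicate 2 lay at another site than that of the pooled list and replicate 4. The median of the 9 pooled values was 1126, against 4301 over the 11101 protein-coding genes with any candidate. Members had a median of 9 pooled candidates per gene, against 3 per protein-coding gene. From 2 to 10 kb, the class of 6 members, the medians were closer, at 5 against 4. Below 2 kb slp1 alone had 10 against 2, and above 10 kb the 2 members had a median of 20 against 8. The median ranks were not matched for gene length.

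The threshold of the IDR list passed between close values. Just inside it were the foxo peaks at rank 1379 (signal 97.89) and 1537 (signal 93.42). Just outside it were the slp2 regions at rank 1854 (signal 86.0) and 1973 (signal 83.95), followed by regions of foxo at 2173 and jumu at 2229. Over all candidates the lowest signal of a peak was 92.53 and the highest below the list 92.52.

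The replicates were compared by asking whether each pooled region had a summit within 100 bp in both replicate lists. All 7 member peaks did, against 91.6% of all peaks. Of the 80 member candidates that were not peaks 28.7% did, against 27.6% of all such candidates. Of the 7 peaks, 4 (fkh, slp1, slp2 and the upstream foxo peak) were among the 1567 strongest of both replicates, against 46.3% of all peaks, which is near the members' share. The jumu peak was among them in replicate 4 alone, the foxo peak at the inner TSS in replicate 2 alone, and the foxo peak beyond the 3' end in neither. Counting genes by each replicate's own 1567 strongest regions, 4 of 9 members had one in replicate 2, against 20.0% of protein-coding genes, and 5 of 9 in replicate 4, against 21.0%. jumu was the gene without one in replicate 2. A single control alignment served for both replicate lists, so a match between the replicates is not independent of it.

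**Figure D4:**
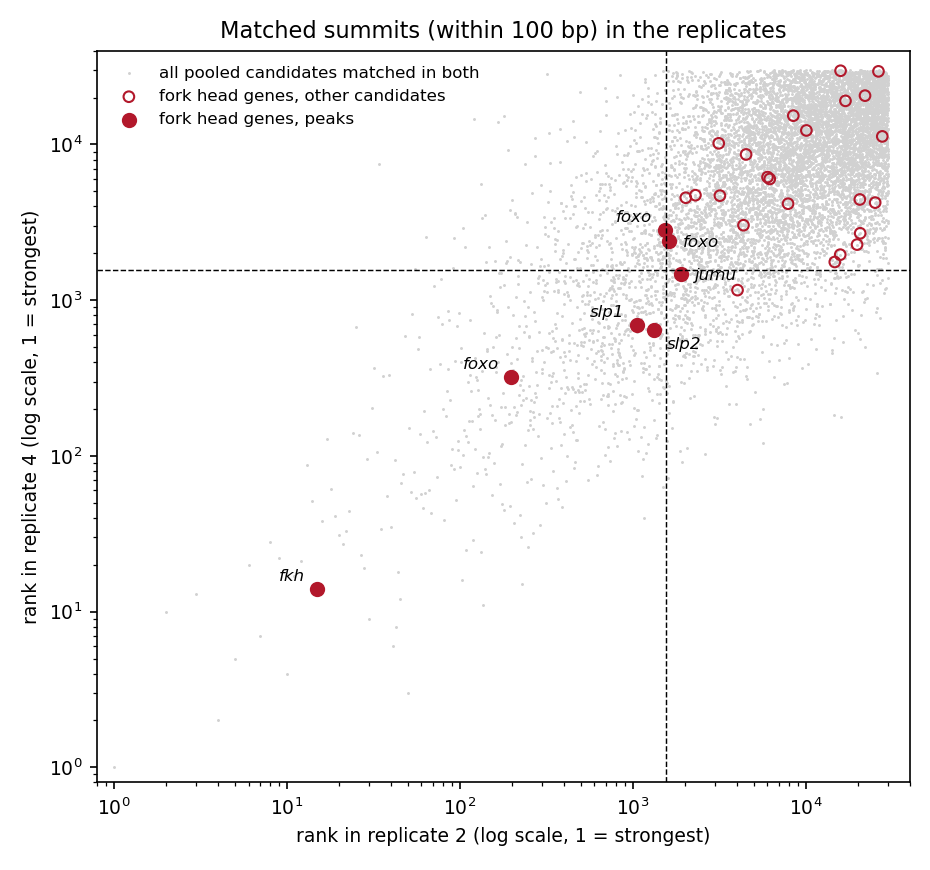
Rank in replicate 2 (x axis) and in replicate 4 (y axis), both on a log scale, of pooled regions with a summit within 100 bp in both; grey points are all such regions, red points those of the 9 genes, filled for peaks, and dashed lines mark rank 1567. The fkh peak sits at 15 and 14, slp1, slp2 and the upstream foxo peak lie in the lower left field, and the jumu peak and the other foxo peaks lie at or just beyond its border.

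By position, 28 of the 87 pooled candidates lay upstream of the gene, 38 inside it and 21 downstream, and 10 lay within 500 bp of a TSS of the gene. Of the 7 peaks, 4 lay within 500 bp of such a TSS and 3 did not. Nearness to a TSS was usual for peaks: over all peaks the median distance to a TSS of any gene was 259 bp. That is another measure than distance to the gene's own TSS. The share of all candidates or all peaks within 500 bp was not worked out. The 3 lists shared the same place for the strongest region at fkh, slp1, slp2, foxo, jumu and fd64A, but not at bin, croc and fd59A. At croc it was 520 bp upstream of the TSS in replicate 2 and 3348 bp upstream in replicate 4. At fd59A it was 6521 bp downstream of the TSS in replicate 2 and 246 bp upstream in replicate 4. At bin the strongest region of replicate 2 was 1462 bp upstream of the TSS (rank 4080) and that of replicate 4 at the TSS of Mp (rank 4435). The peak regions also differed in base composition. Within 100 bp of the summit, GC made up 64.2% of bases at fkh, 48.3% at slp1, 47.3% at slp2, 46.8% at jumu, and 40.8%, 36.3% and 33.3% at the inner, upstream and downstream peaks of foxo. The median over all peaks was 43.8%.

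Matches to 6 motifs within 100 bp of the summit, on either strand, were counted. The fork head consensus TGTTTAC was found at none of the 7 member peaks and at 5.75% of the 87 member candidates, against 9.0% of all peaks and 5.46% of all candidates. The GAGA factor motif GAGAGAG was found at 1 member peak, the inner foxo peak, and at 10.3% of member candidates, against 11.0% of all peaks and 5.28% of all candidates. GCCATNT, for the Polycomb recruiter Pho, was found at 1 member peak and 12.6% of member candidates, against 14.2% and 13.7%. TGAGTG, for Zeste, gave 1 member peak and 12.6% of member candidates, against 14.0% and 11.8%. The Pho and Zeste matches were at the jumu peak. TATCGAT, for the DREF factor of housekeeping promoters, gave no member peak and 2.3% of member candidates, against 7.4% and 4.02%. CAGGTAG, for the early activator Zelda, gave no member peak and 5.75% of member candidates (5 regions), against 1.28% and 1.5%. In the sequences printed above, the capitals of fkh (TGAGTG) reach past 100 bp from the summit and those of slp1 (the reverse complement of CAGGTAG) lie beyond it, so neither is in these counts. No motif overlapped another in those sequences. The shares depended on the window. Within 200 bp TGAGTG was found at 4 of the 7 member peaks, against 25.7% of all peaks, and within 50 bp at none, against 6.64%. The count of 4 was the highest at member peaks for any motif and window. Within 200 bp TGAGTG was at 24.1% of member candidates, against 21.5% of all candidates.

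A further 8 fork head genes, from a list fixed by name, were examined in the same way. That makes 17 genes examined here, 8 of them with a peak. Of these others, CHES-1-like had 6 peaks, FoxK 2 and fd102C 1, and FoxP, fd19B, fd3F, fd96Ca and fd96Cb had none. Thus 3 of 8 had a peak, against 21.1% of protein-coding genes. By length that share was 15.3% below 2 kb (fd19B and fd96Cb), 34.5% above 10 kb (CHES-1-like) and 23.1% between (the rest). Of their 53 candidates 9 (17.0%) were peaks, 6 of them at CHES-1-like, against 8.05% for the members and 5.22% of all candidates. CHES-1-like, which acts beside jumu in heart progenitors, is 27048 bp long, and its peaks lay in introns, 1 of them also in an exon of lncRNA:CR43287. The strongest ranked 152 in the pooled list, 79 in replicate 2 and 702 in replicate 4, and the next 236, 329 and 329. FoxK had its strongest peak at rank 337 (316 in replicate 2 and 500 in replicate 4), 364 bp upstream of 1 of its 4 TSSs. The fd102C peak, 109 bp upstream of the TSS, ranked 1283 in the pooled list, 815 in replicate 2 and 3587 in replicate 4. fd96Ca and fd96Cb, a neighbouring pair of FoxB paralogues, had their strongest regions at ranks 3850 and 3843. The fd96Cb region lay 11 bp from the TSSs of CG33095 and CG33096, and the candidate 98 bp upstream of fd96Cb ranked 5337. The strongest region of fd3F (rank 3343) lay 21 bp from the TSS of ec, and that of FoxP (rank 21824) 9 bp from the TSS of hyd. That of fd19B ranked 27166, with the TSS of lncRNA:CR45628 nearest.

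Protein-coding genes outside the family with promoter peaks of like rank in both replicates were sought for the peak of fkh and for that of slp1, the stronger of the slp pair in the pooled list, over these 2 samples. The measure was the sum over the replicates of the absolute log2 difference in rank. Nearest to fkh were CenG1A and mRpS23, which share a peak at rank 14 (12 in replicate 2 and 21 in replicate 4; measure 0.907), and mRpL41 at rank 19 (1.433). Nearest to slp1 were Hmg-2 at rank 730 (0.095), ras at rank 993 (0.145) and milt at rank 762 (0.151).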

How the data were processed

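ChIP-seq regions of 2 biological replicates of Ash1-GFP embryos were analysed as deposited. Per the text deposited with the files, the authors made a list of 30000 candidate regions in dm6 from each replicate and another from both alignments pooled, each against 1 shared control, and an IDR-thresholded list of 1567. The aligner, caller and IDR threshold were not given in the sources used here. Signal values in these lists are the authors' enrichment over the control, on a scale that is not stated. The deposited −log10 q-value reached its maximum in 3537 pooled candidates, all 7 member peaks included, and was not used. Start, end and summit offset came from the same deposited lists, in bp. The lists hold no read counts, so depth is unknown.

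Genes and TSSs came from Ensembl release 115, without transposable elements, on 6 chromosome arms; fd64A matched the symbol FoxL1 through a RefSeq synonym. Peaks were pooled regions also present in the IDR list. Scripts in Python 3.11.15 with pandas 2.3.3 were tested on simulated data. No statistical test was made, because 1 group gives no contrast. Regions and genes are not replicates. Named in the text are the 9 members, the other fork head genes and genes holding a named summit or, where given, its nearest TSS. For fkh and slp1 the 3 non-family genes with a promoter peak of the nearest ranks in both replicates are also named. The members and lists were chosen with earlier results of these data known. Alternatives were other distances, assignments, thresholds, windows and each replicate alone.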

Additional observations from a re-analysis of the deposited data

How the results depend on the processing

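The number of members with a peak, 5 of 9, was 4 or 5 with windows of 2 kb or 10 kb, with peaks within 500 bp of a TSS, with the nearest TSS only and with peaks strong in both replicates. It was 3 (fkh, slp1 and foxo) with the strongest 783 of the peaks, a list shorter by construction. From 1 replicate alone it was 4 to 5. Over all protein-coding genes the share was 21.1% at 5 kb and 7.49% within 500 bp of a TSS. It was 20.0% in replicate 2 alone and 21.0% in replicate 4 alone. For the other settings this share was not worked out, so those counts do not show whether the members still differed from it. The same limit holds for the other fork head genes below. The median rank of the strongest region, 1126, was 1470 to 1895 from 1 replicate alone and 1035 with summits under 1000 bp apart merged. Member candidates matched in both replicates numbered 30 within 100 bp (34.5%, against 31.0% of all candidates), 19 within 50 bp and 43 within 250 bp. Those with any of the 6 motifs numbered 35 within 100 bp of the summit, 13 within 50 bp and 55 within 200 bp, windows of unequal length. No share over all candidates was worked out for the 6 motifs together, or for matches within 50 bp or 250 bp. These counts therefore show only how the setting changes them, not whether members differ from other candidates. Single motifs shifted too: GCCATNT was at 2.3% of member candidates, against 7.25% of all candidates, within 50 bp and at 20.7%, against 24.8%, within 200 bp. TGTTTAC was at 2.3%, against 2.92%, within 50 bp and at 14.9%, against 9.61%, within 200 bp. Candidates numbered 63 within 2 kb and 125 within 10 kb of the genes. The other fork head genes with a peak numbered 3, or 2, with fd102C lost, from replicate 4 alone, with the strongest 783 peaks and with peaks strong in both replicates. For single genes and motifs, 18 alternative values stayed within the SD of the replicates' ranks, or within 1.5 times for counts, and 21 did not. That SD is wide where the replicates disagree, so the tally for ranks does not measure stability. For fkh, 15 and 14 from 1 replicate alone counted as moved from 12. For croc, 8483 and 2691 did not count as moved from 4871. The value 8483, from replicate 2, belongs to another region, 520 bp upstream of the TSS. The croc region behind 4871 ranked 20676 in replicate 2. No paired analysis was possible because the samples form 1 group. Unknown depth, 2 replicates and a shared control limit what the ranks can separate.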
